A study of Lemna gibba with 6 samples.

Results

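Nitrate reductase and nitrite reductase carry out the reduction of nitrate to ammonium, and transcripts of 2 genes for them were followed in the duckweed *Lemna gibba*, out of 16340 genes in the expression table. They were taken by their identifiers, ferredoxin-nitrite reductase (LEMGIv51_A5_006998_1) and NADH-nitrate reductase (LEMGIv51_A5_009812_1), which the study names among genes it also measured by qRT-PCR. Their difference between the nitrogen sources was already known when they were chosen, so it is described here and not tested. Fronds of 1 clone, *L. gibba* G3 7742a, were grown axenically in liquid medium with 5 g/L glucose under continuous light. Under the ONS condition (organic nitrogen source) the medium held 6.85 mM glutamine in place of inorganic nitrogen, and under the INS condition (inorganic nitrogen source) it held 12.4 mM nitrate and 1.3 mM ammonium. The INS medium thus differs from the ONS medium in ammonium as well as in nitrate, and in the ONS medium potassium chloride replaced potassium nitrate. Whole fronds with their roots were harvested together. In the growth cultures of the study, roots were a larger share of dry weight under ONS, and the culture time was shorter. For each condition 3 libraries of polyA-selected RNA were sequenced.

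In plants nitrate is reduced in consecutive steps. Nitrate reductase, a cytosolic enzyme with a molybdenum cofactor, uses NADH to reduce nitrate to nitrite. Nitrite is toxic and moves into the plastid, where nitrite reductase reduces it to ammonium with electrons from ferredoxin, which photosynthesis supplies in green tissue and NADPH from the oxidative pentose phosphate pathway in roots and other non-green tissue. Glutamine synthetase and glutamate synthase then bind the ammonium into glutamine and glutamate. In many plants the genes for both reductases are induced by nitrate, and reduced nitrogen compounds such as glutamine can lower the expression of nitrate reductase.

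The libraries differed in depth, with an estimated 14444000 to 35807000 reads under ONS and 8325000 to 25857000 reads under INS, as computed from the summed means and the size factors. Transcript levels are the authors' mean normalized read counts of each condition, that is, read counts divided by DESeq size factors and averaged over the libraries. They are not divided by transcript length. Among 15249 genes whose mean over all libraries was 10 or more, 89.4% differed by no more than 2-fold between the conditions, and the median log2 fold change (ONS over INS) was 0.04. As a check of the labelled tissue, 14 of 15 genes annotated as the small chain of RuBisCO, the CO2-fixing enzyme of green tissue, had reads under both conditions, and the highest of them ranked 4 under ONS and 4 under INS.

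Transcripts of both reductases were abundant under INS and reduced to a small remainder under ONS. The nitrite reductase gene had a mean normalized read count of 948 under ONS and 23539.7 under INS, as the authors' means. This is 24.8-fold lower under ONS, a log2 fold change of −4.63, and 4.03% of the INS level was left. For nitrate reductase, which catalyzes the first step, the authors' means were 609.8 under ONS and 18879 under INS, 30.96-fold lower under ONS with a log2 fold change of −4.95. Here 3.23% of the INS level was left. In RNA from whole fronds, fewer cells that express a gene and less of its RNA per cell cannot be told apart.

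**Figure D1:**
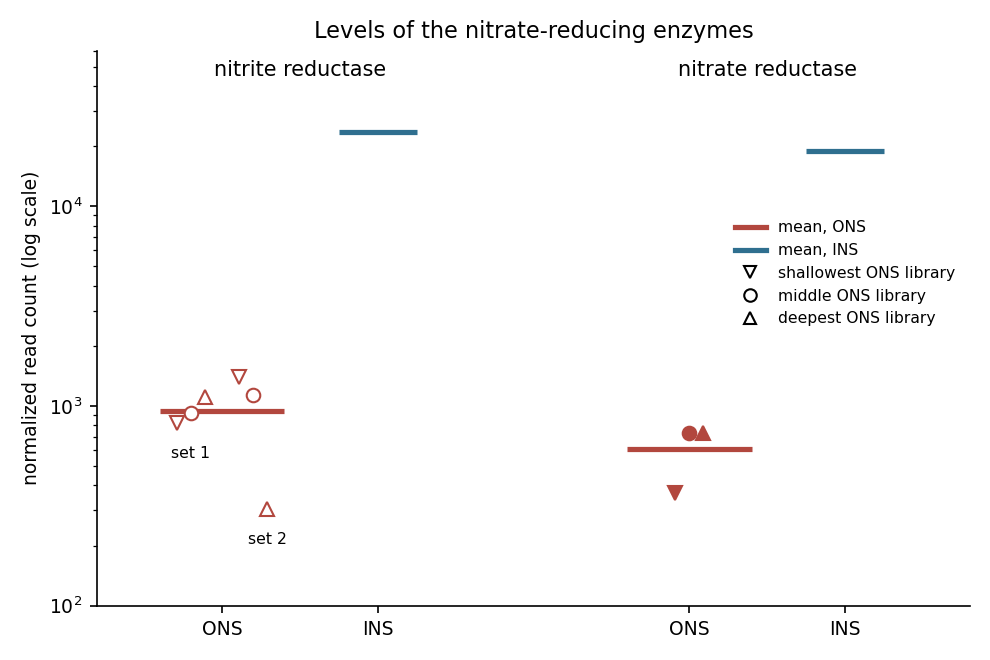
Normalized read counts (log scale) of nitrite reductase and nitrate reductase under ONS and INS. Horizontal bars are the authors' condition means, filled symbols the 3 ONS libraries of nitrate reductase, and open symbols the 2 sets of library values that the ONS mean of nitrite reductase allows. All ONS values lie between 306 and 1402, against INS means of 23539.7 and 18879.

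Values of single libraries could be obtained for nitrate reductase under ONS. Reads are whole numbers and each library has its own size factor, so for a mean under 1000 often only 1 combination of reads in the 3 libraries gives the printed digits. Nitrate reductase had 289 reads in the shallowest ONS library, 641 in the middle one and 1435 in the deepest. After normalization these were 365, 734 and 731, or 609.8 ± 212 (SD, n = 3). Nitrate reductase was thus at about the same level in the middle and the deepest library and lower by a factor of 2.01 in the shallowest. Of 6587 genes with an ONS mean of 100 or more and a single such combination, 13.3% had a ratio of the highest to the lowest library at least this large. Among the 1461 of them with an ONS mean of 500 or more it was 9.65%.

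The ONS mean of nitrite reductase is compatible with 2 sets of reads, and the printed digits do not decide between them. In set 1 the normalized read counts were 818 in the shallowest, 917 in the middle and 1110 in the deepest library (648, 801 and 2179 reads). In set 2 they were 1402, 1138 and 306 (1110, 994 and 600 reads). The libraries differed by a factor of 1.36 in set 1 and of 4.59 in set 2. A factor at least as large as that of set 1 was seen for 61.3% of the 6587 genes, and one at least as large as that of set 2 for 0.486%. Among the 1461 genes with an ONS mean of 500 or more these shares were 57.8% and 0.342%. Genes with more than 1 combination of reads, as nitrite reductase has, are left out of these shares. In set 1 the shallowest library was the lowest, as it was for nitrate reductase, and in set 2 the deepest was.

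At the INS means of both genes the number of possible sets is too large, so no value per library and no error is given for INS. At least 1 INS library must have reached the mean or more. For nitrate reductase the INS mean was 25.7 times the highest of the 3 ONS libraries. For nitrite reductase it was 21.2 times the highest ONS library in set 1 and 16.8 times the highest in set 2. Whether the lowest INS library also lay above all ONS libraries was not measured for these genes. Leaving out each ONS library in turn, nitrate reductase was 25.8- to 34.5-fold lower under ONS. The same gave 23.2- to 27.1-fold for nitrite reductase with set 1 and 18.5- to 32.6-fold with set 2.

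The spread between libraries of one condition gives a scale for these differences. Under ONS, the highest library exceeded the lowest by a factor of 1.45 in the median of the 6587 genes, and by at most 2.52 for 95% of them. Under INS the median factor was 1.49 in the 7572 genes taken in the same way, with 2.82 as the limit for 95%. The largest factor was 17.7 under ONS and 19.5 under INS. For 0 of these genes was it as large as the difference of either reductase between the conditions. These factors compare single libraries, whereas the difference of a reductase compares condition means. Both reductases were chosen with their difference known, so the count of 0 describes the data and is no test. These genes have means under 1000, whereas the reductases are far above that under INS. Genes that were more than 4-fold lower under ONS had a median factor of 1.69 under ONS (173 genes) and 1.96 under INS (279 genes), taken from a lower minimum mean of 20. In 57.8% of those 173 genes the shallowest ONS library was the lowest, as for nitrate reductase, against 37.7% of the 6587 genes. Under INS the shallowest library was likewise the lowest in 54.5% of the 279 genes, against 32.5% of the 7572. The part of the shallowest ONS library in the level of nitrate reductase was not tested.

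**Figure D2:**
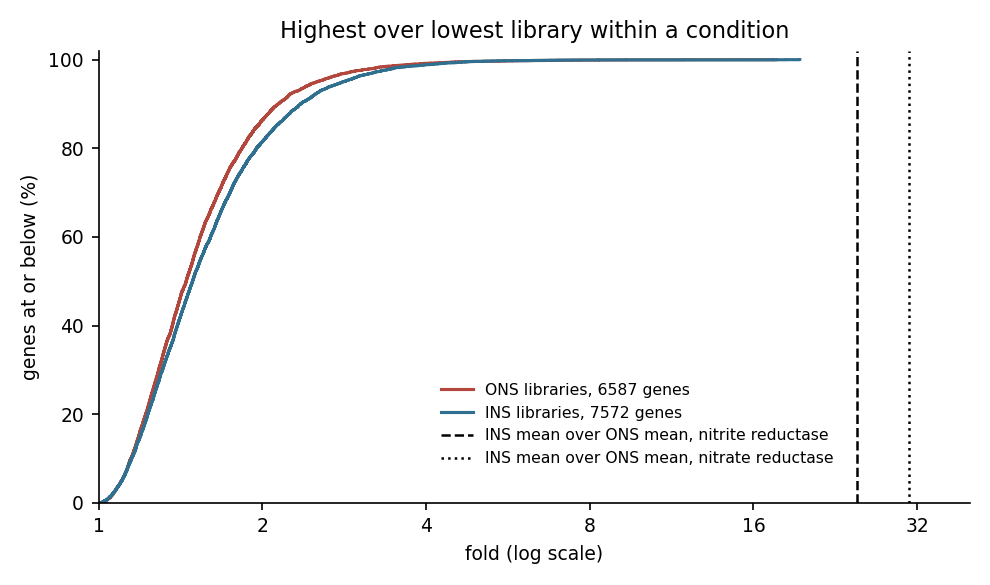
Cumulative percentage of genes (vertical axis) against the ratio of the highest to the lowest library within a condition (fold, log scale), for 6587 genes under ONS and 7572 under INS. Vertical lines mark the INS mean over the ONS mean of nitrite reductase (24.8) and nitrate reductase (30.96). Both curves end left of the lines, at 17.7 and 19.5. The curves compare single libraries and the lines compare condition means, so the gap between them is no test.

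Where reads could be separated in both conditions, large differences between condition means went with libraries that did not overlap. Of 290 genes that were more than 4-fold lower under ONS, 287 had every ONS library below every INS library, as had all 37 that were more than 16-fold lower. This held for 14.1% of all 10300 genes that had separated reads and passed the same minimum mean of 10. These counts describe other genes, chosen by the same means, and give no error for the reductases.

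Few genes differed as much between the nitrogen sources. Of the 15249 genes with a mean of at least 10, 2.30% were more than 4-fold lower under ONS and 0.295% more than 16-fold, by the same ratio of condition means. Both reductases are among the 45 genes that were more than 16-fold lower. Of the other genes, 27 were lower by a factor at least as large as that of nitrate reductase, and 30, nitrate reductase among them, by one at least as large as that of nitrite reductase. In the other direction, 0.328% of the genes were more than 4-fold higher under ONS and 0.0262% more than 16-fold, and neither reductase was.

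Under INS the reductases also stood among the genes with the highest read counts. Ranked by mean normalized read count, nitrite reductase was gene 3730 of 16340 under ONS and gene 86 under INS. Nitrate reductase was gene 5359 under ONS and gene 114 under INS. Of the 86 genes with an INS mean at least as high as that of nitrite reductase, 1 was more than 4-fold lower under ONS, which was nitrite reductase itself. Of the 114 genes down to the level of nitrate reductase, the 2 reductases were the only ones. Both cutoffs are the INS means of the reductases themselves. Of all 15249 genes with a mean of at least 10, 2.30% were more than 4-fold lower, so at 4-fold these counts do not set the highest genes apart. The 200 highest genes under INS had a median log2 fold change of −0.01, and 4 of them were more than 4-fold lower, against the same 2.30%. All 4 were also more than 16-fold lower, against 0.295% of the 15249 genes, and the 2 reductases are among them. The others of these 4, LEMGIv51_A5_021177_1 and LEMGIv51_A5_021715_1, are not annotated in the sources used here. LEMGIv51_A5_021715_1, named after its values had been seen, had means of 135 under ONS and 14466 under INS, 107-fold lower under ONS. These ranks follow read counts that are not divided by length, so that long transcripts rank higher than short ones at the same number of molecules.

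**Figure D3:**
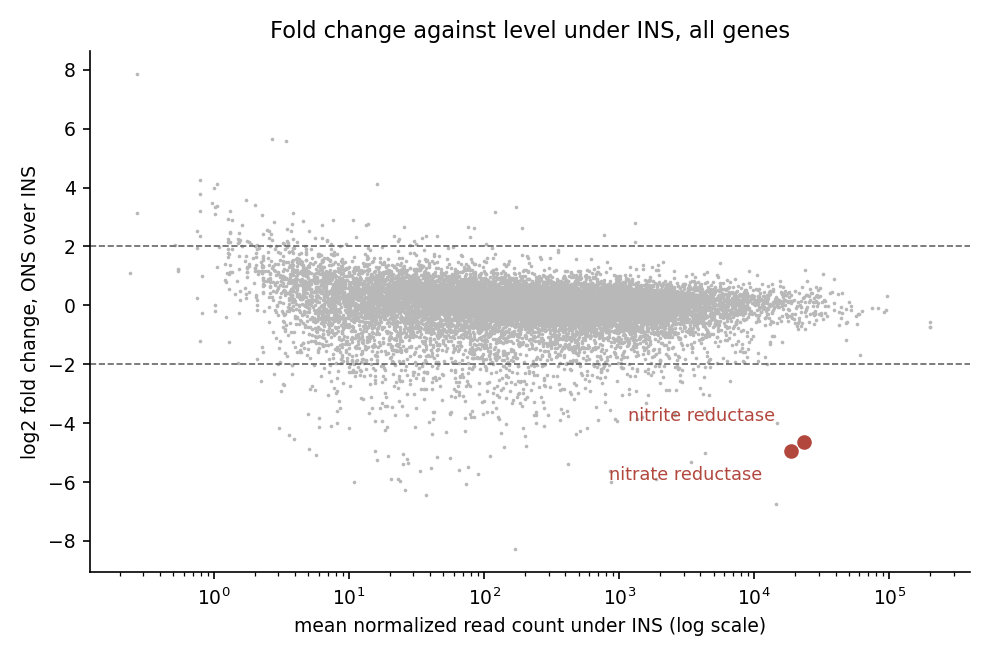
Log2 fold change (ONS over INS) of all genes with reads under both conditions against their mean normalized read count under INS (log scale), one point per gene. Dashed lines mark 4-fold. The reductases (large points) lie at −4.63 and −4.95 at INS means of 23539.7 and 18879, where most other genes lie near 0.

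Counted in normalized reads, the differences of the reductases were among the largest of the table. The mean of nitrite reductase was 22591 normalized reads lower under ONS, the 6th largest decrease of the table, and that of nitrate reductase 18270 lower, the 8th largest. Together the 2 genes made up 0.00854% of the summed means of all genes under ONS and 0.227% under INS, and their sum was 27.2-fold lower under ONS.

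Transcripts of both enzymes were still detected under ONS. Nitrite reductase remained at 3.32 times the mean of the median gene under ONS, against 80.8 times under INS. Nitrate reductase was at 2.13 times the median gene under ONS, against 64.8 times under INS. On glutamine medium 22.8% of the genes had a mean as high as that of nitrite reductase or higher, and 32.8% one as high as that of nitrate reductase or higher. Over the 3 ONS libraries these levels rest on 2365 reads of nitrate reductase and on 3628 (set 1) or 2704 (set 2) reads of nitrite reductase.

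By the condition means, nitrite reductase had more normalized reads than nitrate reductase under ONS and under INS. The ratio of nitrite reductase to nitrate reductase, as normalized read counts not divided by length, was 1.56 under ONS and 1.25 under INS, a difference of 0.32 on the log2 scale. Of the reads of the pair, nitrite reductase took 60.9% under ONS and 55.5% under INS. In the single ONS libraries the ratio was 2.24, 1.25 and 1.52 (shallowest, middle, deepest) with set 1 of nitrite reductase. With set 2 it was 3.84, 1.55 and 0.418. The SD of the log2 ratio among ONS libraries was 0.43 for set 1 and 1.61 for set 2. This SD is a spread of single libraries and not an error of the difference between condition means. The ratio under INS has no error, so a difference between the conditions could not be shown with these data, nor its absence.

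The gene most like both reductases in its levels was LEMGIv51_A5_021177_1. Likeness was taken as the distance in the plane of the log2 means under ONS and INS, over the 2 condition means and 14803 genes with means of at least 10 under both. This gene had means of 921 under ONS and 14814 under INS, 16.1-fold lower under ONS. Its distance was 0.67 from nitrite reductase and 0.69 from nitrate reductase. The reductases were 0.71 apart, each being the second nearest gene to the other, and no further gene lay within 1 of either. Genes with neighbouring numbers differed far less. The 6 genes with numbers up to 2 away from a reductase and with reads in the table had means of 6.52 to 322 under ONS and 4.59 to 288 under INS, with log2 fold changes of −0.81 to 0.83. Numbers were read as they stand, and positions in the genome were not used here.

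Genes for glutamine synthetase, glutamate synthase and glutamate dehydrogenase, enzymes of ammonium and glutamate metabolism, had log2 fold changes between −1.02 and 0.68. The lists were taken from the enzyme annotation of the study's reaction network. Glutamine synthetase, which binds ammonium to glutamate, is encoded by 4 genes of the list, and 0 of 4 passed 4-fold in either direction, with a median log2 fold change of 0.24 against 0.04 over all 15249 genes. Of all those genes 2.30% were more than 4-fold lower and 0.328% more than 4-fold higher, so that a count of 0 in so short a list does not set it apart. The chloroplastic gene LEMGIv51_A5_013274_1, the highest of them, had a mean of 53707 under ONS and 41603 under INS (log2 fold change 0.37). The cytosolic genes LEMGIv51_A5_021303_1 and LEMGIv51_A5_010281_1 had log2 fold changes of 0.12 and 0.68. The cytosolic gene LEMGIv51_A5_004150_1 stood at 3073 under ONS and 6215 under INS, 2.02-fold lower under ONS.

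Glutamate synthase passes the amide group of glutamine on to 2-oxoglutarate, and 0 of its 2 genes passed 4-fold. With 2.30% of all genes more than 4-fold lower and 0.328% more than 4-fold higher, this count does not set them apart. The ferredoxin-dependent gene LEMGIv51_A5_013691_1 had a mean of 21964 under ONS and 18024 under INS. The NADH-dependent gene LEMGIv51_A5_013918_1 had 3281 under ONS and 5364 under INS, a log2 fold change of −0.71. Glutamate dehydrogenase (LEMGIv51_A5_014322_1), which interconverts glutamate and 2-oxoglutarate, had 1925 under ONS and 1411 under INS. All 3 genes for NADP-dependent isocitrate dehydrogenase, a source of 2-oxoglutarate, lay between −0.64 and 0.55 on the log2 scale, and the highest of them, LEMGIv51_A5_013883_1, had 8685 under ONS and 7035 under INS. No error is given for means above 1000, and these differences were not tested.

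**Figure D4:**
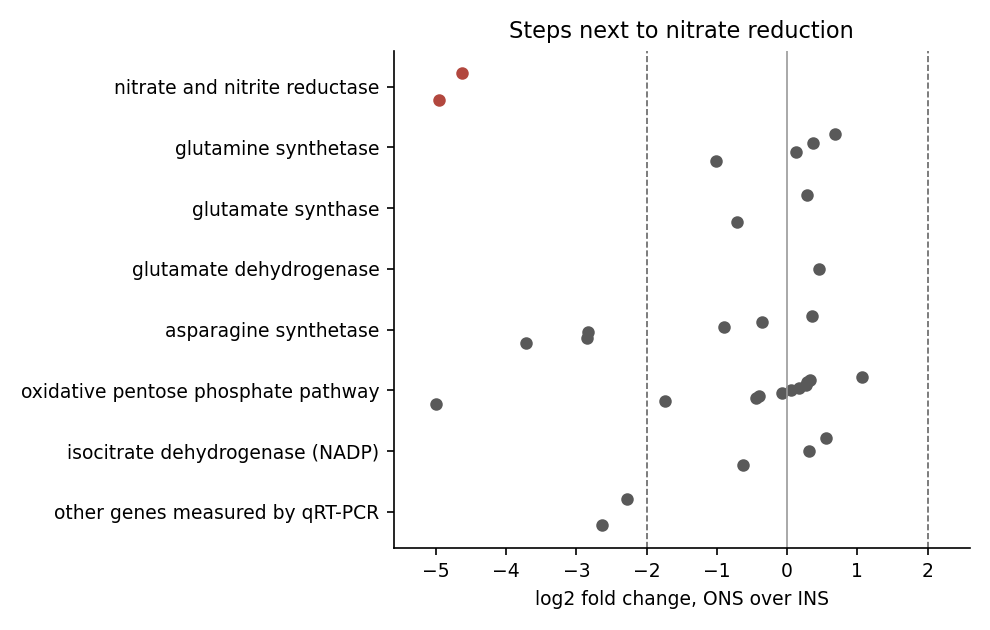
Log2 fold change (ONS over INS) of the reductase genes and of the genes of 7 other lists, one point per gene. The solid line marks 0 and dashed lines mark 4-fold. The reductases lie at −4.63 and −4.95, and the glutamine synthetase, glutamate synthase and glutamate dehydrogenase genes between −1.02 and 0.68.

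Decreases of more than 4-fold occurred in the other lists for asparagine synthetase and the oxidative pentose phosphate pathway. Asparagine synthetase, which forms asparagine from aspartate and glutamine, had 3 of 6 genes more than 4-fold lower under ONS, against 2.30% of all 15249 genes, with LEMGIv51_A5_015132_1 at 195 under ONS and 2572 under INS (log2 fold change −3.72). LEMGIv51_A5_015128_1 and LEMGIv51_A5_015129_1, with log2 fold changes of −2.84 and −2.86, had nearly the same levels as each other in both conditions, and whether they share reads was not tested. LEMGIv51_A5_015125_1, the gene with the highest mean of that list, had 3683 under ONS and 4722 under INS. Of 11 genes of the oxidative pentose phosphate pathway in the table, from a list of 14, 1 was more than 4-fold lower, against the same 2.30% of all genes. This was the phosphogluconate dehydrogenase gene LEMGIv51_A5_005055_1, with 134 under ONS and 4299 under INS, 32.1-fold lower under ONS. Its ONS libraries had 93.4 to 158 normalized reads. The glucose-6-phosphate dehydrogenase gene LEMGIv51_A5_015264_1 was the highest of the list by its mean over both conditions, but not under ONS. Its means were 1350 under ONS and 4494 under INS, 3.33-fold lower under ONS and short of 4-fold. The pathway had a median log2 fold change of 0.06. Over all lists without the reductases, 6 of 29 genes in the table were more than 4-fold lower, against 2.30% of all genes, and 0 were more than 4-fold higher, against 0.328%. Their median log2 fold change was −0.07. Without the 2 other genes measured by qRT-PCR, 4 of 27 genes were more than 4-fold lower. The lists were chosen with earlier results known, so these counts are a description.

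The other genes measured by qRT-PCR, transketolase (LEMGIv51_A5_017459_1) and pyruvate decarboxylase (LEMGIv51_A5_020915_1), were both lower under ONS by smaller factors than the reductases. Transketolase, which moves carbon units between sugar phosphates, had 29.8, 38.2 and 42.9 normalized reads under ONS and 185, 217 and 289 under INS, each from the lowest to the highest library. Pyruvate decarboxylase, which starts ethanol fermentation, had 79.0, 114 and 130.1 under ONS and 306, 579 and 689.9 under INS. For both genes all ONS libraries lay below all INS libraries, at 6.23-fold and 4.87-fold lower means. The same held for 287 of 290 genes with separated reads that were more than 4-fold lower under ONS. Over all 10300 genes with separated reads and a mean of at least 10 it held for 14.1%. Both genes passed 4-fold, so the lack of overlap does not set them apart from other genes with such decreases.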

How the data were processed

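Paired-end reads of 101 bp were aligned by the authors with Bowtie against transcripts predicted in the *L. gibba* draft genome v0.5.1. The authors divided read counts by DESeq size factors and deposited the mean of each condition, a signal of normalized read counts with no value per library (Bowtie and DESeq versions are not given in the sources used here). The table also holds the authors' fold changes, p-values, adjusted p-values and calls, which were not used. The condition of each mean was taken from the name the authors gave it, and the condition of each sample from its title. Whether a number in the titles marks a shared batch is not stated.

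Fold changes are ratios of the deposited means with no pseudocount, and genes with a mean of at least 10 over all libraries were counted at the 4-fold threshold of the study's methods. The weight of a read in each library was found from the lowest means, and all whole reads that give a mean under 1000 to its 10 printed digits were searched. Every mean under 1000 had a solution, and 91.3% of 12769 means under ONS and 99.7% of 12633 under INS had a single one. On simulated data, all 12431 single solutions under ONS and all 10070 under INS were exact. The simulation started from the true weights, rounded, so the step that finds the weights from the lowest means was not tested. The simulation differed from the data in the share of means with a single solution, 97.8% under ONS and 79.3% under INS, and 2 simulated ONS means had no solution. Libraries are named by depth, since they could not be matched to replicate numbers. The planned limma test needed reads of the reductases in both conditions, and since their INS means were not separated it was not run. No count model was fitted.

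The genes and lists were chosen with earlier results of these data known. Named genes are the reductases, all genes for glutamine synthetase, glutamate synthase and glutamate dehydrogenase, genes of the other lists that passed 4-fold or had the highest mean, and the gene nearest to each reductase. The exception is marked. Alternatives were other scalings, pseudocounts, filters and thresholds. Python 3.11.15, numpy 2.4.6, scipy 1.17.1, pandas 2.3.3 and numba 0.67.0 were used.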

Additional observations from a re-analysis of the deposited data

How the results depend on the processing

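Of 33 alternatives, 27 left their result within the spread between libraries (a log2 SD of 0.29, taken from genes with a mean of at least 100) or, for ranks, counts and spreads, within 1.5 times, 6 moved it further and 0 reversed it. Centring on the median gene, dividing by the summed means and pseudocounts of 1 and 10 gave log2 fold changes of −4.66 to −4.60 for nitrite reductase and −4.98 to −4.92 for nitrate reductase. Such settings could move the fold changes little, since the scalings shift all genes alike and the pseudocounts are small beside the means. Leaving out each ONS library, an alternative added after the data had been examined, gave −5.03 to −4.21 for nitrite reductase over both sets of reads and −5.11 to −4.69 for nitrate reductase. The number of genes more than 4-fold lower under ONS was 351, against 1127 at 2-fold, 45 at 16-fold, 170 with a mean of at least 100 and 221 with a pseudocount of 10. A looser or stricter fold threshold changes this number by construction. Filters left the ranks of both reductases under ONS at 3730 and 5359. This was fixed in advance, since every gene ranked above them has a mean over all libraries above the filters of 10 and 100. These alternatives are among the 27 and say nothing on how stable the ranks are. Since many settings could move a result little or had to move it, the 27 and 6 are no measure of stability. No INS library could be left out, since the INS means of the reductases could not be separated into reads. No paired analysis was possible because the table carries no replicate numbers. Depth does not limit the levels of the reductases, but the lack of values per library under INS leaves their fold changes without an error.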
